A study of Mus musculus with 2 samples.

Results

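The collagen genes of the mouse were described in the liver of the E14.5 embryo (embryonic day 14.5). Members were all protein-coding genes of the mm10 gene tables whose symbol has the form of a collagen chain (Col, a type number, a and a chain number), which gave 44 of 43346 genes and of 21474 protein-coding genes. By the known structure of the chains, 11 are fibrillar, 6 are the type IV chains of basement membranes and 27 are of other kinds. Livers came from mixed-sex littermates of strain C57BL/6J with no treatment and no altered allele in the labels. RNA longer than 200 nt, poly(A)-selected and depleted of ribosomal RNA, was sequenced as stranded read pairs in 2 libraries, which the labels call biological replicates 1 and 2. With 1 group, the only comparison possible is between these libraries, and both carry the same donor label. Nothing in the labels says that they came from separate litters, so the differences between them may be technical.

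Collagens are secreted proteins whose chains wind in threes into a triple helix, which needs glycine at regular steps along the chain (the Gly-X-Y repeat). Fibrillar chains form the cable-like fibrils of connective tissue, type IV chains form the sheet of the basement membrane, and the other types decorate fibrils, anchor cells or span membranes. In the fetal liver, collagen chains are known to be made by stellate and other mesenchymal cells, by endothelial cells and, for type XVIII, by hepatocytes.

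The repeat that makes the helix can be read in the exons of the most abundant fibrillar chains. The first 54-nt exon made only of whole Gly-X-Y triplets is given for 4 fibrillar genes, with a type IV exon of whole triplets for contrast. Sequences are from GENCODE M21 transcripts on mm10, 5′ to 3′ on the coding strand. Capitals mark the glycine codon (GGN) that opens each Gly-X-Y triplet. A glycine codon at an X or Y position, as in Col1a1 and Col5a1, is in lower case.
Col3a1, exon 6 of 51, chr1:45325360-45325413 (+): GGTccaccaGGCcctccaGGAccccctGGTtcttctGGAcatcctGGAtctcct
Col1a1, exon 8 of 51, chr11:94939904-94939957 (+): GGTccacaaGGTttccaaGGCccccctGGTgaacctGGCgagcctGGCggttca
Col1a2, exon 8 of 52, chr6:4515481-4515534 (+): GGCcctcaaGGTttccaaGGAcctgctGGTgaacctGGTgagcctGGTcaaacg
Col5a1, exon 15 of 66, chr2:27965251-27965304 (+): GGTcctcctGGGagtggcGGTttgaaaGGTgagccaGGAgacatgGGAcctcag
Col4a1, exon 3 of 52, chr8:11247006-11247095 (-): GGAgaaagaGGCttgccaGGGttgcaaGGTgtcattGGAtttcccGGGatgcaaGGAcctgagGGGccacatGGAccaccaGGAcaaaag

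Each of the fibrillar exons shown holds 6 triplets, and the Col4a1 exon holds 10. The exons of Col1a1 and Col1a2, the 2 chains of type I collagen, were identical at 42 of 54 bases. Junction reads, which span a splice site and were summed by the authors over both libraries on mm9, joined each of these exons to its neighbours. Col3a1 had 493 reads into the exon and 507 out of it, Col1a1 207 and 138, Col1a2 164 and 229, Col5a1 47 and 61, and Col4a1 148 and 140. All 5 exons were thus spliced into liver RNA.

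Exon length followed the triplet repeat most closely in the fibrillar genes. In the longest coding transcript of each gene, 526 of 627 internal coding exons of the fibrillar genes (83.9%) had a length that is a multiple of 9 nt, and 305 (48.6%) were 54 nt long. The next lengths were 108 nt (84 exons, 13.4%) and 45 nt (70 exons, 11.2%). Type IV genes had 134 of 284 exons at a multiple of 9 nt (47.2%) and only 12 at 54 nt (4.23%). The other collagens with internal coding exons (24 genes) had 564 of 1006 (56.1%) and 152 (15.1%), and all other protein-coding genes had 13.7% and 0.444% of 156832 exons. The 54-nt exon was not confined to fibrillar genes. Col9a2, of the other collagens, had 22 of 30 exons at a multiple of 9 nt (73.3%) and 14 at 54 nt (46.7%). The longest unbroken run of Gly-X-Y triplets was 338 triplets in the median fibrillar gene (range 216 to 344), 43.5 in type IV (39 to 66) and 45 in the other types (23 to 113). Col27a1 (217 triplets) and Col24a1 (216) had shorter runs than the 9 remaining fibrillar chains, which had 337 to 344.

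**Figure D1:**
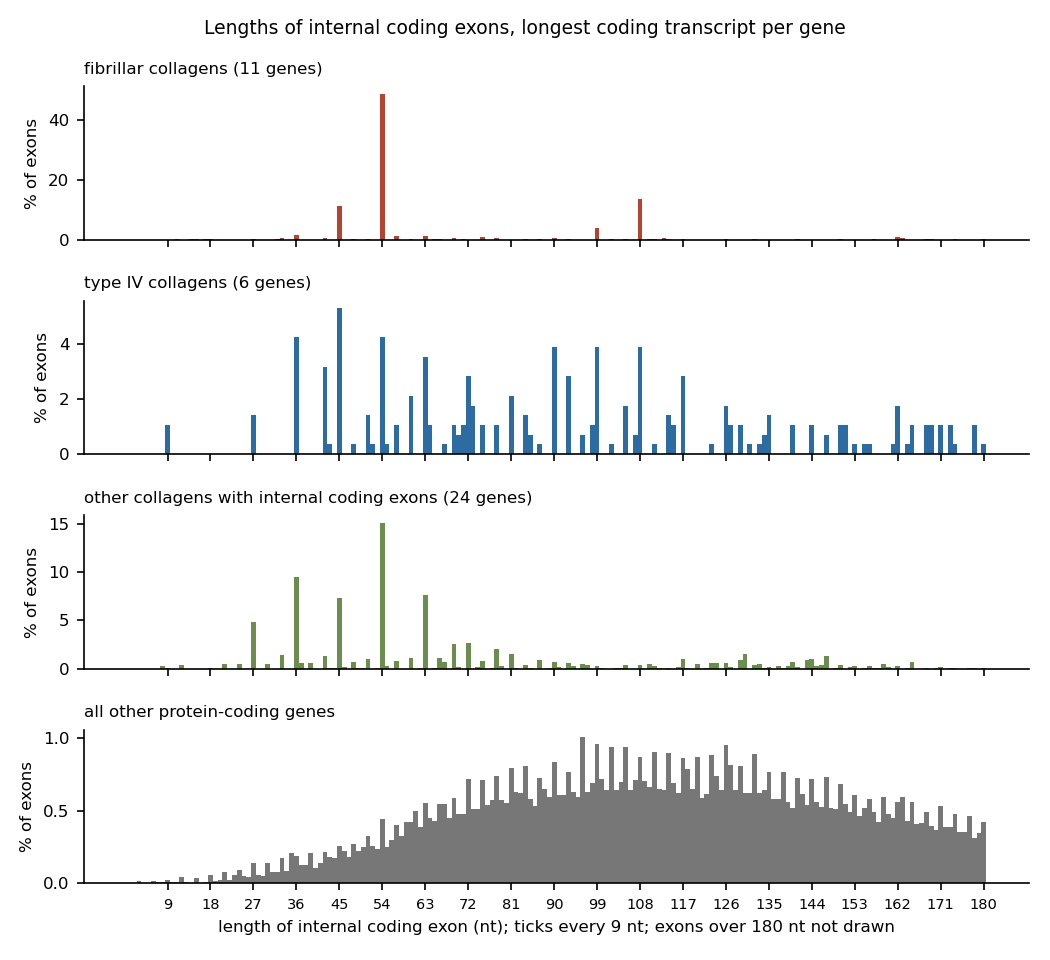
Share of internal coding exons (y axis, % of the exons of the group) by exon length (x axis, nt) in fibrillar, type IV and other collagens and in all other protein-coding genes, from the longest coding transcript of each gene; y axes differ between panels. The bar at 54 nt holds 48.6% of fibrillar, 4.23% of type IV and 0.444% of other protein-coding exons.

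Library sizes were 102720920 expected counts over genes in replicate 1 and 65640933 in replicate 2, so that 0 counts allows up to 0.0292 and 0.0457 CPM (counts scaled to a common library size; the limit is 3 counts); such limits and all counting intervals cover counting error only. RNA spike-ins took 2.84% and 1.82% of counts, and the mean fragment length was 213 nt in replicate 1 and 302 nt in replicate 2. The 4 hepatocyte markers were abundant in both libraries, with Alb at 10323 and 8911 TPM. TPM is the authors' level of a transcript, corrected for its length and for depth. As fewer cells of a type and less RNA per cell cannot be told apart in bulk RNA, levels are given as levels of the tissue.

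Of the 44 collagen genes, 14 (31.8%) reached 1 TPM in both libraries, against 49.5% of protein-coding genes, and 16 had a mean of at least 1 TPM. The summed level of the family was 152 TPM in replicate 1 and 107 TPM in replicate 2. Col3a1, Col18a1, Col1a2 and Col1a1 together held 58.3% and 53.8% of it. In scaled counts the family sum was 822 and 739 CPM. TPM was lower in replicate 2 for most genes, with a median log2 TPM ratio of -0.23 over all genes averaging at least 1 TPM. The order of the genes was alike in both libraries (Spearman rho 0.977 over 44 genes, a description of 2 libraries of one tissue). Against the mm9 gene table rho was 0.981, but 12 of the 20 named genes had another rank there. No member was at 0 counts in both libraries. Col19a1 (2 and 0 counts), Col10a1 (5 and 0), Col6a5 (8 and 1) and Col22a1 (9 and 8) were the lowest.

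**Figure D2:**
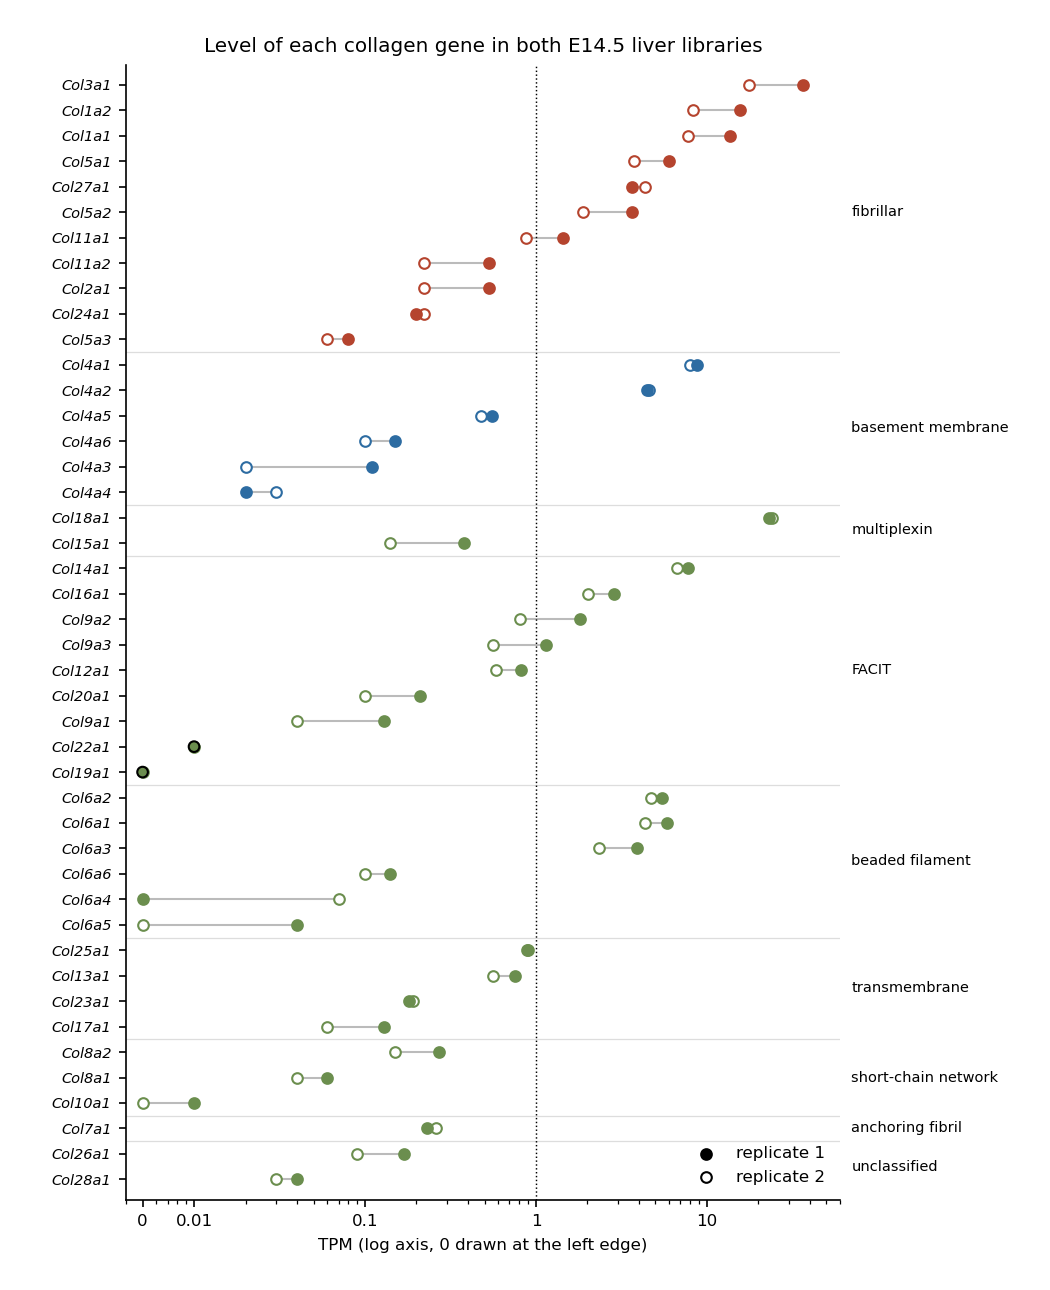
Level of each of the 44 collagen genes in TPM (log axis, values of 0 drawn at the left edge) in replicate 1 (filled) and replicate 2 (open), grouped by class; the dotted line marks 1 TPM. Col3a1 (36.3 and 17.6 TPM) and Col18a1 (22.95 and 24.05 TPM) lead, and 28 genes have a mean below 1 TPM.

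The fibrillar genes were led by the chains of types III and I. Col3a1 (chr1:45311538-45349706), the only chain of type III collagen, was at 36.3 TPM in replicate 1 and 17.6 TPM in replicate 2. Col1a2 (chr6:4504814-4541544) was at 15.6 and 8.28 TPM, and Col1a1 (chr11:94936224-94953042) at 13.6 and 7.70 TPM. On the TPM scale Col3a1 stood above the type I chains in both libraries, and all 3 were lower in replicate 2. In the authors' mean mm9 RPKM the order was another one, with Col1a2 first (9.36), Col18a1 next (7.01) and Col3a1 after them (4.91). The authors' mm9 junction reads did not follow that order, with 29998 on Col3a1, 20707 on Col18a1 and 16918 on Col1a2. Of the type V chains, which join type I fibrils and limit their width, Col5a1 was at 6.02 and 3.72 TPM, Col5a2 at 3.63 and 1.88 TPM and Col5a3 at 0.08 and 0.06 TPM. Col27a1, a fibrillar chain known from cartilage, was at 3.62 and 4.36 TPM, the one fibrillar gene of at least 1 TPM that was higher in replicate 2. Col11a1, whose product nucleates thin fibrils, was at 1.44 and 0.88 TPM. The other 4 fibrillar genes (Col2a1, Col11a2, Col24a1 and Col5a3) lay between 0.06 and 0.53 TPM. On the TPM scale Col1a1 was below Col1a2 in both libraries, with a mean log2 ratio of -0.15 (SD 0.068, n = 2). In expected counts Col1a1 was above Col1a2, with 9614 against 9339 in replicate 1 and 4113 against 3696 in replicate 2.

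The level of some of these genes rests in part on short transcript models, to which the tables assign few reads but much abundance. Col3a1-205, a model of 737 nt, was given 40.2% of the abundance of Col3a1 in replicate 1 and 30.7% in replicate 2, from 966 of its 15494 counts and 233 of 6574. The full-length Col3a1-201 of 5564 nt was given 59.1% and 69.05%. Counts per kilobase of the longest coding transcript, a measure added after the data were seen, put Col18a1 first (mean of 25.96 after scaling for depth) and Col3a1 next (22.55). For Col5a1, models of at most 1100 nt held 24.3% of TPM in replicate 1 and 0.54% in replicate 2 (3.16 and 0.058% of counts). Col27a1 and Col11a1 had no model this short. Yet a processed transcript of 1485 nt was given 45.96 and 43.67% of the abundance of Col27a1. The full-length coding model of Col27a1 was at 1.29 and 1.47 TPM. In Col11a1, a model of 2570 nt labelled as nonsense-mediated decay was given 39.87 and 46.42%. The full-length coding model of Col11a1 was at 0.86 and 0.47 TPM. The ratio of Col18a1 to Col3a1 was 0.63 in replicate 1 and 1.36 in replicate 2 on the TPM scale, so these 2 genes changed places between the libraries.

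Of the type IV genes, only the pair found in all basement membranes reached 1 TPM. Col4a1 was at 8.76 and 7.91 TPM and Col4a2 at 4.46 and 4.60 TPM, close in both libraries. Col4a5 was at 0.55 and 0.48 TPM and Col4a6 at 0.15 and 0.10 TPM. Col4a3, which with Col4a4 and Col4a5 builds the network of the kidney filter, was at 0.11 and 0.02 TPM, and Col4a4 at 0.02 and 0.03 TPM. These genes lie in 3 head-to-head pairs on mm10. Col4a1 starts at chr8:11312826 on the minus strand and Col4a2 at chr8:11312805 on the plus strand, so that the gene models overlap by 22 bases. The gap was 71 bases between Col4a4 and Col4a3 on chromosome 1 and 1308 bases between Col4a6 and Col4a5 on the X chromosome. Both members of a pair were in the same range of levels for Col4a1 and Col4a2 (1.96-fold apart in replicate 1 and 1.72-fold in replicate 2), whereas Col4a5 was at 0.55 TPM beside 0.15 TPM of Col4a6 in replicate 1.

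Col18a1 was the highest collagen outside the fibrillar class, at 22.95 TPM in replicate 1 and 24.05 TPM in replicate 2. Its product, type XVIII collagen, is a proteoglycan of basement membranes whose last part can be released as endostatin. The other multiplexin, Col15a1, was at 0.38 and 0.14 TPM. Col18a1 (chr10:77052178-77166548, minus strand) has an upstream start (Col18a1-202) and a downstream start (Col18a1-203 and Col18a1-201) that lead into the same exon. As background, the short form is made from the upstream start and is widespread, and the longer forms are made from the downstream start, known for its use in liver. The joins of each model to the first shared exon are printed because the reads that cross them separate the starts. Each line gives 30 bases of the M21 transcript, lower case from the model's own exon and capitals from the shared exon, which starts at chr10:77096535 on mm10.
Col18a1-202, own exon chr10:77166290-77166360: cctgggcagagccagAGAATGTTGCTGAGG
Col18a1-203, own exon chr10:77112959-77113705: caccagacttcccagAGAATGTTGCTGAGG
Col18a1-201, own exon chr10:77112218-77113946: ttgggccagctgcagAGAATGTTGCTGAGG

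The measures of the start of Col18a1 disagreed. In the mm10 transcript tables, Col18a1-202 from the upstream start held 65.4% of the abundance of the gene in replicate 1 and 64.0% in replicate 2 (64.7% ± 1.02, SD, n = 2). In the mm9 transcript table the upstream start held 59.9% in the authors' mean. The junction reads gave the opposite order: 39 reads joined the upstream model to the shared exon, 775 joined Col18a1-203 to it and 38 crossed the junction that Col18a1-201 shares with the downstream model not in M21. The upstream start thus held 39 of 852 such reads, 4.58% (Wilson 95% interval 3.37 to 6.20%), and the downstream start 95.4% (93.8 to 96.6%). The first intron of the upstream model had 87 reads. Of the downstream models, Col18a1-203 held 21.9 and 22.9% of the abundance, Col18a1-201 2.04 and 5.46%, and a model of 1956 nt that is not in M21 10.1 and 7.61%. On M21, Col18a1-202 ends 838 bases beyond Col18a1-203 and 1016 bases beyond Col18a1-201 at the 3′ side. The mm10 transcript estimates were made on annotation M4, where Col18a1-201 is 6338 nt long, against 5595 nt on M21. The 1016 bases therefore need not hold for the model of Col18a1-201 behind the estimates. The part of the 3′ ends in the transcript estimates was not tested. The junction measure was added after the data were seen.

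**Figure D3:**
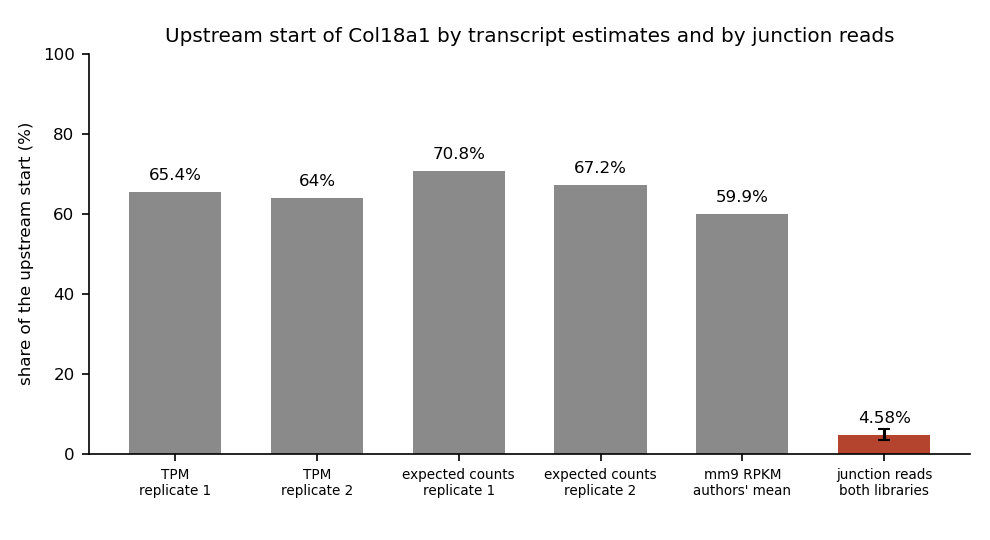
Share of Col18a1 assigned to its upstream start (y axis, %) by the transcript TPM and expected counts of each library, by the authors' mean mm9 RPKM and by mm9 junction reads into the first shared exon (red, with its Wilson 95% interval). The transcript estimates lie between 59.9 and 70.8%, and the junction reads give 4.58%.

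Among the fibril-associated (FACIT) genes, whose products sit on the surface of fibrils, Col14a1 was highest at 7.71 TPM in replicate 1 and 6.65 TPM in replicate 2. Col16a1 was at 2.86 and 2.02 TPM, but models of at most 1100 nt held 67.8 and 71.3% of that level and 21.1 and 19.4% of its counts. Its full-length model Col16a1-201 was at 0.34 and 0.24 TPM, and its mm9 RPKM was 0.178 (rank 17 of the 44 genes, against 14 in TPM). Col9a2, a chain of the type IX collagen of cartilage, was at 1.81 and 0.81 TPM, of which short models held 34.8 and 7.41%. The other 6 FACIT genes lay between 0 and 1.14 TPM. Type VI collagen, which forms beaded filaments around cells, was present with its 3 classical chains. Col6a2 was at 5.48 and 4.71 TPM, Col6a1 at 5.81 and 4.33 TPM and Col6a3 at 3.91 and 2.34 TPM. Col6a4, Col6a5 and Col6a6, which lie side by side on chromosome 9, stayed between 0 and 0.14 TPM. Of the transmembrane collagens, Col25a1 was at 0.89 and 0.90 TPM, and the other 3 were between 0.06 and 0.75 TPM. The 3 short-chain genes (Col8a1, Col8a2 and Col10a1, the last a marker of hypertrophic cartilage) lay between 0 and 0.27 TPM. Col7a1, the anchoring fibril of skin, was at 0.23 and 0.26 TPM, and Col26a1 and Col28a1 between 0.03 and 0.17 TPM.

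As a share of the summed TPM of the family, the fibrillar genes held 53.7% in replicate 1 and 42.2% in replicate 2 (48.0% ± 8.17, SD, n = 2). Type IV genes held 9.26% and 12.3% (10.8% ± 2.13), and the other types 37.0% and 45.6% (41.3% ± 6.05). The fibrillar share was lower in replicate 2, and the shares of type IV and of the other types were higher. On the authors' mean mm9 RPKM the split was 53.7%, 12.2% and 34.1%. The share of type IV depends on the unit, since it was 14.7% of expected counts, which are not per length, and 13.0% of counts per kilobase of the longest coding transcript.

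**Figure D4:**
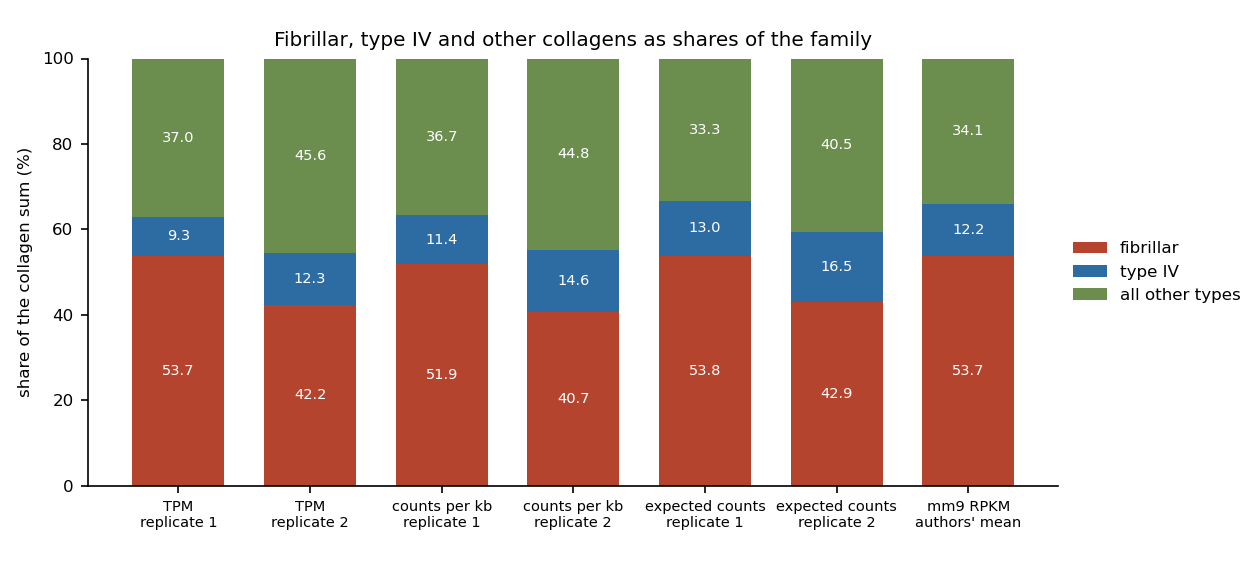
Fibrillar (red), type IV (blue) and all other collagens (green) as a share of the collagen sum (y axis, %) in each library, by TPM, by counts per kilobase of the longest coding transcript and by expected counts, and in the authors' mean mm9 RPKM. The fibrillar share is lower in replicate 2 on each of the 3 scales with separate libraries, for example 42.2 against 53.7% of TPM.

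Chains that share a trimer can be compared per length. Type I collagen has 2 Col1a1 chains to 1 Col1a2 chain, and their TPM ratio was 0.87 in replicate 1 and 0.93 in replicate 2. Per kilobase of the longest coding transcript it was 0.928 in replicate 1 and 1.004 in replicate 2. Models shorter than 1100 nt held 8.22 and 11.8% of the TPM of Col1a2. Col4a1 exceeded Col4a2, with which it also pairs at 2 chains to 1, by 1.96 and 1.72 times on the TPM scale. Col5a1 exceeded Col5a2 by 1.66 and 1.97 times in TPM. Col6a1 and Col6a2, which enter type VI collagen in equal number, had TPM ratios of 1.06 and 0.92, on either side of equality. The TPM ratio of Col6a1 to Col6a3 was 1.48 and 1.85. That ratio rose to 3.34 and 3.42 per kilobase of the longest coding transcript, while a retained-intron model of 646 nt was given 54.2 and 43.85% of the abundance of Col6a3. On mm9 RPKM the mean log2 ratio of Col1a1 to Col1a2 was -1.46, against -0.15 on the TPM scale.

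Between the libraries, most expressed fibrillar genes were lower in replicate 2, while Col18a1, Col4a1 and Col4a2 were higher. Differences are log2 of replicate 2 over replicate 1 in counts scaled by TMM (a library-size correction), with 95% counting intervals. They were Col3a1 -0.59 (-0.63 to -0.55), Col1a2 -0.69 (-0.74 to -0.63), Col1a1 -0.58 (-0.63 to -0.52), Col5a2 -0.59 (-0.69 to -0.49) and Col11a1 -0.53 (-0.70 to -0.37). Col5a1, the partner of Col5a2, differed by only -0.07 (-0.13 to 0.00). On the other side were Col27a1 at 0.52 (0.43 to 0.62), Col18a1 at 0.38 (0.34 to 0.42), Col4a2 at 0.32 (0.25 to 0.39) and Col4a1 at 0.14 (0.09 to 0.20). Over all tested genes that averaged 1 TPM or more the median was -0.015.

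By an exact binomial test of each gene (two-sided, given the gene's total over both libraries), 22 of 41 tested collagen genes had an adjusted p under 0.05, 16 lower and 6 higher in replicate 2. Lower were 39.0% of the tested members against 30.3% of all 17906 genes tested, and 29.9% of all genes were higher. Of the fibrillar genes 7 of 11 were lower and 1 was higher, and of the type IV genes 1 of 6 was lower and 2 were higher. This test knows counting error alone and compares 2 libraries, not conditions. With the spread between libraries taken from 14 housekeeping genes (a coefficient of variation of 15.3%), edgeR's exact test left 1 lower (Col2a1) and 1 higher (Col6a4). With spike-in counts as library sizes, which moved the median of all genes to 0.64, 2 members were lower and 22 higher; Col3a1 was then at 0.064, Col1a1 at 0.076 and Col1a2 at -0.036, all below that median.

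At least 2-fold differences with an adjusted p under 0.05 were found for 4 of the 41 tested members (9.76%), against 8.02% of all genes tested. Among the 15415 protein-coding genes tested the share was 5.80%. These 4 were of low level. Col2a1, the chain of cartilage fibrils, had 292 and 71 counts, and its log2 difference was -1.38 (adjusted p = 1.48e-14, exact binomial test). Col9a1, also of cartilage, had 51 and 10 counts (-1.65, adjusted p = 0.000548, exact binomial test). Col15a1 had 137 and 43 counts (-1.01, adjusted p = 6.89e-05, exact binomial test). Col6a4 had 0 counts in replicate 1 and 33 in replicate 2, at least 17.2-fold higher when 3 counts are set for the library at 0. Only Col6a4 was higher in replicate 2 among the 4. With spike-in counts as library sizes Col2a1, Col9a1 and Col15a1 no longer passed, and Col18a1, Col23a1, Col27a1 and Col4a4 passed beside Col6a4.

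**Figure D5:**
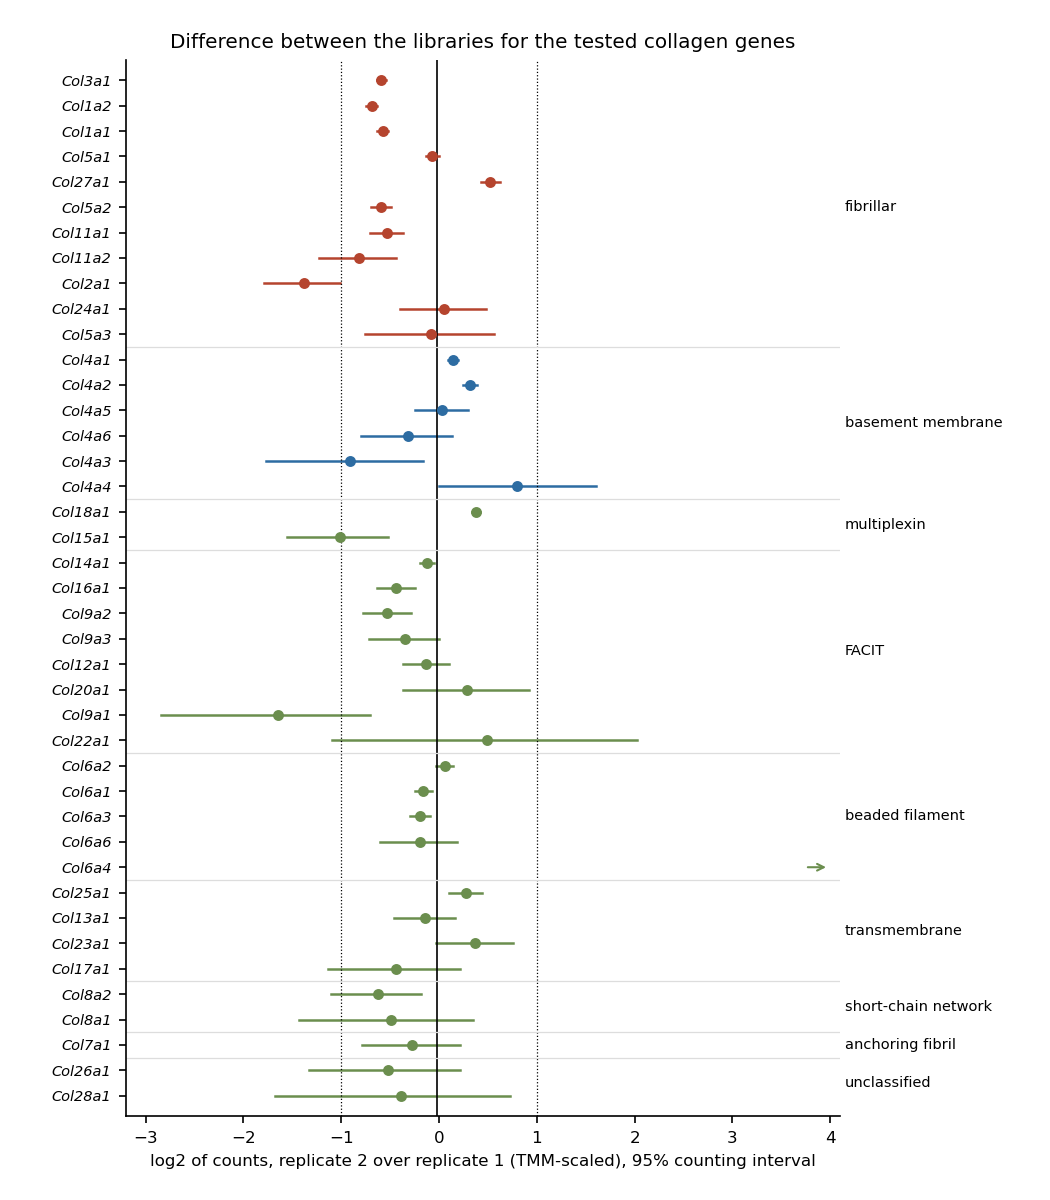
Log2 of replicate 2 over replicate 1 (x axis, TMM-scaled counts) for the 41 tested collagen genes by class, with 95% counting intervals; the solid line is the median of all genes that averaged 1 TPM or more, dotted lines mark 2-fold and the arrow marks Col6a4, which is at 0 in replicate 1. Col3a1, Col1a2, Col1a1 and Col5a2 lie between -0.69 and -0.58, and with spike-in scaling Col3a1, Col1a1 and Col5a2 are just above 0 (0.064 to 0.076). The median of all genes is then 0.64 (not drawn), and these genes stay below it.

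Marker genes of other cells were set beside these differences. The 11 stellate and mesenchymal markers had a summed 421 CPM in replicate 1 and 386 in replicate 2, with 4 lower, 3 higher and a median log2 difference of 0.06. The 4 lower ones were Hand2 (log2 -0.65), Pdgfra (-0.48), Vim (-0.42) and Lum (-0.40). The 3 higher ones were Ngfr (0.39), Pdgfrb (0.28) and Reln (0.06). Vim and Reln had the most counts of the 11, so that the sum rests largely on them. Of 12 tested genes for fibril-associated proteins, 2 were lower in replicate 2 and 5 were higher, with a median log2 difference of 0.06. The 2 lower ones were Postn (14.6 and 7.64 TPM, log2 -0.68) and Lum (20.8 and 13.5 TPM, -0.40). Bgn was among the higher ones (17.9 and 20.3 TPM, 0.57). Cartilage markers, which matter for Col2a1 and Col9a1, summed to 4.45 and 4.48 CPM over 8 genes. Of these, Acan had 21 and 1 counts, Matn1 28 and 8, Matn3 23 and 12, Cnmd 6 and 0, and Snorc 0 in both. The more abundant Sox9 had 143 and 111 counts (log2 0.28), Comp 111 and 80 (0.18) and Hapln1 125 and 82 (0.04), and none of these 3 passed the test. These 3 made up most of the cartilage sum. Of the 6 cartilage markers tested, 1 was lower and 0 were higher. The lower one was Acan (log2 -3.19, adjusted p = 0.00127, exact binomial test). The 5 mesothelial markers summed to 14.2 and 21.2 CPM, with 0 lower and 3 higher. The 6 endothelial markers summed to 198 and 203 CPM, with 2 lower and 1 higher. The 5 skeletal muscle markers summed to 8.29 and 4.96 CPM, with 1 lower (Mylpf, 717 and 253 counts, log2 -0.85) and 0 higher. The 5 epidermis markers summed to 2.94 and 2.52 CPM, with 2 lower (Krt10 and Trp63) and 0 higher. The 5 bone markers summed to 3.40 and 4.32 CPM, with 0 lower and 1 higher of 2 tested. The 4 bile duct markers summed to 12.02 and 13.17 CPM, with 1 lower and 2 higher. The 4 hepatocyte markers summed to 41304 and 36315 CPM, with 2 lower and 2 higher, and Afp was at a log2 difference of -0.52. The part of any of these cells in the differences was not tested.

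Splice junctions had reads on most introns of the abundant collagen genes. In the mm9 models with most introns, 1595 of 1991 introns of the 44 genes had reads, 138949 reads in all, and 10 of the 16 genes averaging 1 TPM or more had reads on every intron. Col3a1 had 29998 reads on 50 introns, with a median of 514.5 per intron (range 302 to 2190). Col1a2 had 16918 reads on 51 introns (range 1 to 1013) and Col1a1 16720 on 50 (104 to 1536). Col18a1 had 20707 reads on 41 introns (39 to 1753) and Col4a1 11001 on 51 (47 to 1419). Not every intron was covered in all genes of this level, and Col6a3 had reads on 38 of 42. Reads leaned to the 3′ side in most of them. With the introns of a gene split into 3 equal parts, the median of the 3′ part was 785.5 against 457 in the 5′ part for Col3a1, and 494 against 222 for Col1a2. Col6a2 was the other way round, with 102 against 133, and Col6a1 dipped in the middle part (38, against 144.5 and 154). Col10a1 and Col19a1 had no junction read on any of their introns (2 and 50).

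A few junctions competed for the same splice site with at least 20 reads and a share of 10 to 90%. Col5a1 used 2 exons of equal length next to each other near its 3′ end (mm9 chr2:27884487-27884555 and chr2:27884617-27884685), each 69 nt or 23 codons, separated by 61 bases. The annotated exon had 144 of 245 reads from the shared donor (58.8%, Wilson 95% interval 52.5 to 64.8%). The other exon, in no Ensembl model used by the authors, had 101 reads (41.2%, 35.2 to 47.5%). In Col14a1 the last donor was joined to 2 annotated 3′ exons with 182 reads (41.2%) and 260 reads (58.8%). In Col4a1 an unannotated junction held 31 of 212 reads (14.6%, 10.5 to 20.01%). In Col18a1 an unannotated junction that lies 3 bases from the annotated one held 230 of 1108 reads (20.8%, 18.5 to 23.2%). Col27a1 also had a pair 3 bases apart, with 87 and 21 reads, both annotated. Unannotated junctions with an IDR of at most 0.1 held 0.809% of the junction reads of the family (1146 reads on 21 junctions).

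Isoform estimates placed almost all abundance of Col4a1 (98.3 and 99.5%), Col6a1 (100% in both) and Col1a1 (98.25 and 95.9%) on 1 full-length model. Col14a1 was split between a model of 2085 nt (49.2 and 59.7%) and a model of 6447 nt (43.7 and 35.3%). Col6a2 gave 92.3 and 86.4% to Col6a2-201 and 5.78 and 11.45% to Col6a2-202.

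Of 107 genes for the enzymes and partners of collagen, on 10 lists by role, 60 (56.1%) were at 1 TPM or more in both libraries, against 49.5% of protein-coding genes and 31.8% of the chains. The share differed between lists, from 18.2% of the degradation list to 90.9% of the folding list. None of the 101 tested had an adjusted p under 0.05 with at least a 2-fold difference by the exact binomial test. The share was 8.02% of all genes and 5.80% of protein-coding genes. At any fold, 20 of the 101 were lower and 35 higher in replicate 2 (background as above, 30.3 and 29.9%). Of the hydroxylating and glycosylating enzymes 11 of 14 reached 1 TPM, and 2 were lower and 6 higher. P4hb, the shared subunit of prolyl hydroxylase, was at 207 and 142 TPM, the galactosyltransferase Colgalt1 at 28.2 and 28.8, and the lysyl hydroxylases Plod1 at 14.9 and 16.7 and Plod3 at 13.1 and 13.8. Of the folding and export genes 10 of 11 reached it, with 4 lower and 2 higher. They were led by Ppib at 244 and 171 TPM, Sparc at 56.9 and 43.0, the collagen chaperone Serpinh1 at 29.8 and 30.4 and Mia2 at 30.2 and 26.5.

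Of 8 cleavage genes 2 reached 1 TPM (1 lower and 2 higher of 7 tested), Pcolce at 11.7 and 11.6 TPM and the procollagen C-proteinase Bmp1 at 7.41 and 7.47. Of 6 crosslinking enzymes 3 did (1 lower, 2 higher), with Loxl2 at 3.85 and 3.45 TPM, Pxdn, which crosslinks type IV collagen, at 2.43 and 2.33, and Lox at 1.52 and 1.11. Fibril-associated proteins were led by Fn1 (95.9 and 69.99 TPM), Dcn (28.4 and 25.4), Bgn and Lum. Of these proteins 8 of 14 passed 1 TPM, with 2 lower and 5 higher of 12 tested. Of the basement membrane partners 10 of 14 passed (4 lower, 8 higher), with Agrn at 17.9 and 18.5 TPM, Nid1 at 13.5 and 13.1, Lamc1 at 10.4 and 9.98 and Lamb2 at 8.05 and 8.96. Of 11 receptors 3 passed (3 lower and 2 higher of 11 tested): Itgb1 at 40.7 and 28.45 TPM, the platelet receptor Gp6 at 2.07 and 2.12 and Ddr1 at 1.05 and 1.07. Among proteases Mmp14 was at 16.8 in both and Mmp2 at 5.07 and 3.99 TPM, and these 2 of 11 passed 1 TPM (1 lower and 3 higher of 9 tested). The inhibitors Timp3 (3.11 and 2.79 TPM), Timp2 (2.95 and 1.93), Timp1 (1.59 and 1.61) and Reck (1.59 and 1.22) passed, 4 of 5, with 1 lower and 0 higher of 4 tested. Of the 13 genes listed as regulators 7 passed (1 lower, 5 higher), led by Tgfb1 (17.3 and 15.9 TPM) and Sp1 (9.12 and 9.45). Next were Cebpz (7.33 and 3.78), which was the lower one, and Smad3 (3.29 and 2.78). That any of them acts on collagen genes here was not tested. Tll2, Mmp1a, Mmp1b and Timp4 had 0 counts in both libraries, which allows up to 0.0292 and 0.0457 CPM.

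The promoters of the family had one frequent motif. In RefSeq windows of 250 bases before the start on GRCm38, 38 windows matched 35 of the 44 genes. GGGCGG, the GC box, was found on either strand in 22 of the 38 (57.9%), against 32.7% of 32851 windows of all genes. CCAAT was found in 13 (34.2%, against 33.8%) and TATAAA in 5 (13.2%, against 12.4%). Matches of different motifs can share bases. The median GC content was 59% in the collagen windows and 52.4% in all windows. These matches are descriptions of sequence.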

How the data were processed

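Gene and transcript tables of 2 libraries of E14.5 liver (mm10, annotation M4, per a deposited note) hold expected counts, TPM and FPKM, per the file headers, and the percent of each gene's abundance per transcript, as deposited by the authors. The authors also deposited mm9 tables with RPKM of 2 replicates, averaged here since it is not stated which is which, and junctions with read counts summed over both libraries. Each deposited junction also has an IDR, a p-value-like rate that is low where the replicates repeat the junction. The aligner is not given in the sources used here. Junctions flagged as annotated were in all cases an intron of the deposited models.

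Expected counts were rounded. Since a quasi-likelihood fit needs at least 2 groups, each gene's split between the libraries was tested by an exact binomial test (two-sided, given its total; SciPy 1.17.1) with TMM effective sizes (edgeR 4.0.16) and Benjamini-Hochberg adjustment over all 17906 genes with at least 10 counts. The script was tested on simulated data. Log2 ratios add 0.5 counts, and TPM ratios 0.01 TPM. Spike-ins (96 rows) and 26248 rows with numeric identifiers stayed out of library sizes. Members and lists were chosen with earlier results of these data known. Named were the members averaging 1 TPM or more, called members, and up to 4 leading genes of each pathway list, with those at 0. The competing junctions and the other genes named were chosen after their values were seen. Ctage5 was not found under that symbol. Alternatives were DESeq2 1.42.0 size factors, spike-in and total counts as sizes, other minimums, units and tables, each library alone, and edgeR's exact test.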

Additional observations from a re-analysis of the deposited data

How the results depend on the processing

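The 4 called collagen genes were the same 4 with DESeq2 size factors, total counts or no minimum count, and 3 of them with at least 50 counts; the count rose to 22 with no fold minimum and fell to 2 in edgeR's exact test with housekeeping dispersion. In that edgeR test 1 member was lower and 1 higher at any fold, the lower one fibrillar, and with spike-in sizes 2 were lower (1 fibrillar) and 22 higher. Spike-in sizes turned the log2 difference of Col3a1 to 0.064, Col1a1 to 0.076, Col14a1 to 0.53, Col6a1 to 0.49, Col5a1 to 0.58, Col6a3 to 0.46, Col5a2 to 0.064, Col16a1 to 0.21, Col9a2 to 0.12 and Col11a1 to 0.12. All of these values lie below the median of all genes with spike-in sizes, 0.64. The TPM ratio, whose median over all genes of at least 1 TPM was -0.23, turned Col4a1 to -0.15 and Col6a2 to -0.22. The type IV share was 14.7% of counts and 13.0% per kilobase of the longest coding transcript. The upstream share of Col18a1 was 69.0% of transcript counts, 59.9% of mm9 RPKM and 4.58% of junction reads. Log2 chain ratios moved to -1.46 (mm9) and -0.051 (per kilobase) for Col1a1 to Col1a2, 1.15 (mm9) for Col4a1 to Col4a2, 1.76 (per kilobase) for Col6a1 to Col6a3 and 0.66 (pseudocount of 1 TPM) for Col5a1 to Col5a2. The causes were not tested. Counts of detected genes, the fibrillar share and the remaining ratios stayed within 1.5 times or 1 SD. For shares and ratios that SD comes from the same 2 libraries, so each library alone always lies within 1 SD of their mean. FPKM shares and ratios repeat those of TPM. Neither of these settings could show a change, and the fibrillar share itself was 53.7% in replicate 1 and 42.2% in replicate 2. No paired analysis was possible because the series has 1 group.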
